A study of Mus musculus with 8 samples.

Results

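Lpl, Cyp51, Scd1 and Me1 are 4 of the 1931 genes in the authors' table of kidney transcripts from MRL-lpr mice, found there by symbol. They were selected on their scaled counts and FPKM in control and propionate mice, so their difference between the groups is described here without a test. MRL-lpr is an inbred strain that develops a lupus-like disease and carries the lpr mutation of the death receptor gene Fas, in all 8 libraries alike. Of the libraries, 4 are labelled control and 4 propionate, a short-chain fatty acid that gut bacteria make, given at 200 mM in the water the mice drank over 6 weeks. All kidneys are labelled as 12 weeks of age. The sources used here do not give sex, litter or what the controls drank, and each library is taken as 1 mouse.

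The genes stand at separate steps of lipid handling. Lipoprotein lipase, made from Lpl, is secreted and carried to the capillary wall, where it releases fatty acids from circulating triglyceride-rich lipoproteins. Cyp51 encodes lanosterol 14-alpha-demethylase, an endoplasmic reticulum cytochrome of the later cholesterol pathway, whose transcription is driven by the sterol-sensing factor SREBP2. Scd1 encodes stearoyl-CoA desaturase, which places a double bond in saturated fatty acids and is a classic target of SREBP1c and LXR in mouse liver. Me1 encodes the cytosolic malic enzyme, which turns malate into pyruvate and yields the NADPH that fatty acid and sterol synthesis consume, and it is a known target of the oxidative stress factor Nrf2.

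The reference table of promoters held windows for Cyp51 and Me1, and the 2 are shown because they carry the letters for which these genes are known as SREBP and Nrf2 targets. Each runs from 250 bases before to 20 bases after the RefSeq transcription start in GRCm38.p6, on the minus strand. The Cyp51 window is chr5:4104678-4104947 and the Me1 window is chr9:86695895-86696164. Capitals mark matches on either strand to the sterol regulatory element core ATCACNNCA, the antioxidant response element core TGACNNNGC or the CCAAT box.
Cyp51: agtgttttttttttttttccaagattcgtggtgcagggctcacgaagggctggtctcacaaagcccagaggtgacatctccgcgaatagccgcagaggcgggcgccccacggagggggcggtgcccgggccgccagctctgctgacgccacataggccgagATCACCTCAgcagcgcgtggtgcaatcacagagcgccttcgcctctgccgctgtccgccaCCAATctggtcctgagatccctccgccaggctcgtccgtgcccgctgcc
Me1: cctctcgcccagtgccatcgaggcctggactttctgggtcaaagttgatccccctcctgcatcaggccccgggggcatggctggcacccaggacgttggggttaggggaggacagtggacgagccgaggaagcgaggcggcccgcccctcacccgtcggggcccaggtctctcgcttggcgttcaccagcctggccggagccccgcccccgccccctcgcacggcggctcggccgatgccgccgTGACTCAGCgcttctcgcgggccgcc
In Cyp51 the sterol element match begins 89 bases before the start and a CCAAT box 29 bases before it. In Me1 the antioxidant element match begins 6 bases before the start. Over 32851 promoter windows of the same length, 2.51% hold ATCACNNCA, 11.1% hold TGACNNNGC and 35.4% hold CCAAT. Both windows also hold the GC box GGGCGG, which 34.1% of windows have, and neither holds the E-box CACGTG, found in 6.57%. Of 21 cholesterol synthesis genes, 16 had an entry, and 2 of these (Cyp51 and Msmo1) hold ATCACNNCA, while 15 hold CCAAT. A second annotated start of Me1 holds a CCAAT box and neither element. Such matches describe the letters in the window and do not show binding.

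Libraries held 20005328 to 26711127 assigned reads. The listed genes took 13.4% to 15.1% of them. Every listed gene has an unadjusted p of at most 0.05 in the authors' deposited table, so genes outside it are not analysed here. Past an adjusted p of 0.05 in it were 157 genes, 8.13% of those listed. By edgeR's quasi-likelihood test over the listed genes, 1617 of 1793 passed, 90.2%, these genes having been selected on the same libraries. Of these 864 were higher and 753 lower with the authors' size factors, 512 and 773 with TMM factors, and 431 and 179 with a gene length and GC trend removed. Of the 22 proximal tubule markers in the list, 12 are in the table, 6 higher and 6 lower in the means, with 1 rising (Slc6a19) and 2 falling (Pck1 and Slc13a3) past the authors' adjusted p. Their summed level was 3209 to 3788 FPKM in controls and 3146 to 3748 FPKM with propionate. These 12 also entered the table through a difference in this contrast, so their overlapping sums say nothing about the proximal tubule as a whole. Of 20 markers of the loop and distal tubule, 5 are in the table, all higher in the means. Their summed level was 224 to 244 FPKM in controls and 252 to 288 FPKM with propionate. These ranges did not overlap, and among single listed genes 24.1% had no overlap with propionate higher. All 5 entered the table through a difference in this same contrast, so nothing is read from their sum. None of these 5 passed in the authors' deposited table, while edgeR over the listed genes called 4 higher (background 48.2%). Once the trend was removed it called 3 of them higher, beside 431 of all 1784 genes tested. The part of these marker levels in the values of the 4 genes was not tested. FPKM are reads scaled to gene length and to the assigned reads of the library. Of the lists for adrenal gland, lymphocytes, endothelium and podocytes, none of the markers is in the table, and their levels are not analysed here.

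All 4 transcripts were lower on average with propionate, as were 49.1% of listed genes. In 3 of the 4 (Lpl, Cyp51 and Me1) every propionate mouse was below every control, as in 23.5% of listed genes. Every propionate mouse was above every control in 24.1% of them, so that 47.6% had no overlap in either direction. The authors' deposited table calls the same 3 at an adjusted p of 0.05, a call that 8.13% of listed genes have. Since this contrast chose the genes, nothing is read from either count. Scd1 was the most abundant and the most variable of the 4, with groups that overlapped.

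**Figure D1:**
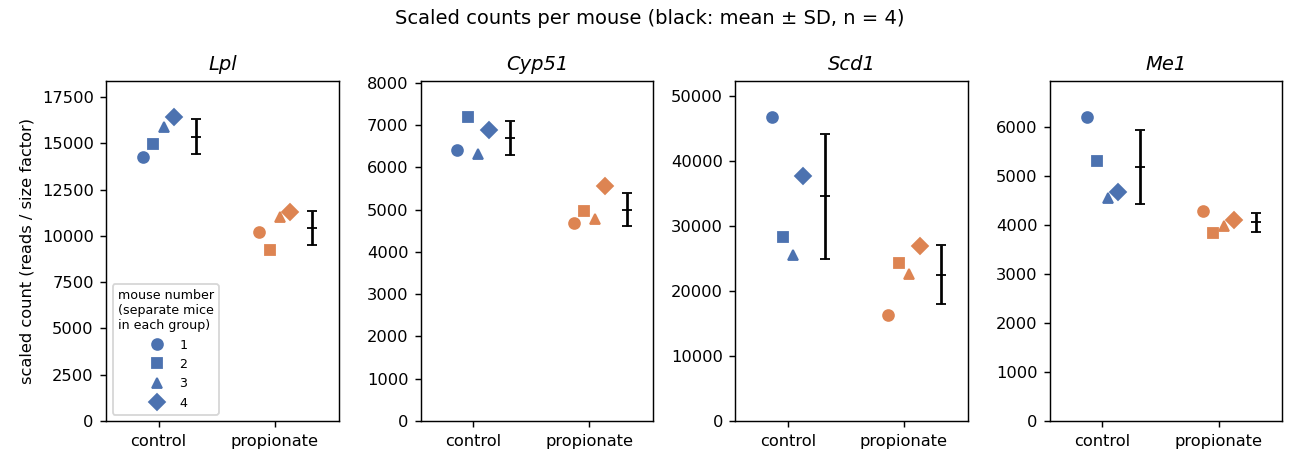
Scaled counts (reads divided by the authors' size factor of the library) of Lpl, Cyp51, Scd1 and Me1 in each mouse, with symbols for the mouse number and black bars for the mean ± SD of 4 mice. Control and propionate mice do not overlap for Lpl, Cyp51 and Me1, while Scd1 ranges from 25479 to 46722 in controls and from 16290.1 to 26928 with propionate.

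Lpl is the gene of fatty acid release. Its scaled counts were 14239.6, 14936, 15860.1 and 16397 in control mice 1 to 4 and 10199, 9214, 11028 and 11268 in propionate mice 1 to 4. The lowest control stood 1.26 times above the highest propionate mouse, so the groups did not overlap. Group means were 15358 ± 959 and 10428 ± 930 (SD, n = 4), and the log2 fold change was -0.56 ± 0.08 (SE), or 0.679 times the control level. Per length, Lpl was at 55.4, 58.8, 61.2 and 64.4 FPKM in controls and 39.5, 36.5, 42.7 and 43.8 FPKM with propionate. The coefficient of variation of its scaled counts was 6.25% in controls and 8.91% with propionate. The gene lies on chromosome 8 from 69333143 to 69360100 on the plus strand, in coordinates of the authors' table, whose build the sources used here do not give.

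Lpl was counted over a long gene model. Its length in the table is 10478 bases, longer than 91.4% of listed genes, whereas its longest coding transcript in GENCODE M21 has 4115 bases. Divided by that transcript length, the same reads would give 153 FPKM in controls and 103 FPKM with propionate in place of 59.9 and 40.6. Among the listed genes, split into equal classes by length, the median log2 fold change in the authors' deposited table was 0.23 in the shortest class, 0.17 in the middle and -0.24 in the longest. By transcript GC it was -0.30 in the lowest class and 0.22 in the highest. With a smooth trend on length and GC removed from each library, the log2 fold change of Lpl was -0.26 ± 0.10 (SE). That trend was fitted on genes selected for a difference between the groups, so it can also take up differences that belong to the treatment.

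Cyp51 is the sterol synthesis gene whose promoter is shown above. Scaled counts were 6410.1, 7185, 6313 and 6893 in controls and 4686, 4979, 4779 and 5559 with propionate. Each propionate mouse was below each control, and the closest pair differed 1.14 times. The means were 6700 ± 411 and 5001 ± 392 (SD, n = 4), with a log2 fold change of -0.42 ± 0.07 (SE), or 0.746 times the control level. Mean FPKM was 62.1 ± 4.37 in controls and 46.3 ± 3.71 with propionate (SD, n = 4), within ranges of 57.8 to 67.2 and 43.0 to 51.3. Its transcripts average 46.9% GC, a value that 25.5% of listed genes fall below. Once the trend on length and GC was removed, its log2 fold change was -0.16 ± 0.09 (SE). In the authors' table Cyp51 is on chromosome 5 from 4131145 to 4154746, minus strand.

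Scd1 is the desaturase. Control mice 1 to 4 had scaled counts of 46722, 28355, 25479 and 37778, and propionate mice 1 to 4 had 16290.1, 24241, 22651 and 26928. Control mouse 1 was the highest of all 8 and propionate mouse 1 the lowest, while control mouse 3 lay below propionate mouse 4. Group means were 34584 ± 9648 and 22527 ± 4517 (SD, n = 4), and the log2 fold change was -0.62 ± 0.20 (SE), or 0.651 times the control level. The coefficient of variation was 27.9% in controls, above that of 95.5% of the 1633 listed genes with a mean scaled count of at least 50, and 20.1% with propionate. Without control mouse 1 the log2 fold change was -0.44 ± 0.17 (SE), and without control mouse 3 it was -0.74 ± 0.19 (SE). Its value was -0.64 ± 0.20 (SE) with the length and GC trend removed, in contrast to the smaller values of the other members after that step. Scd1 transcripts have 54.9% GC on average.

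Per length Scd1 was the highest of the 4 genes, at 389, 239, 211 and 318 FPKM in controls and 135, 206, 188 and 224 FPKM with propionate. It ranked 8 of 1633 listed genes by control scaled count, where Lpl ranked 27, Cyp51 ranked 89 and Me1 ranked 133. Scd1 belongs to a family of close copies. Of 4783 windows of 50 bases in its longest coding transcript in GENCODE M21, 223 also occur in transcripts of other genes, 167 of them in Scd3. The sources used here do not say to which copy such reads were assigned, and Scd2, Scd3 and Scd4 are not among the listed genes. Its position in the table is chromosome 19 from 44382894 to 44396318, minus strand.

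Me1 supplies NADPH. It had scaled counts of 6194, 5314, 4557 and 4665 in controls and 4281, 3843, 3970.0 and 4106 with propionate. The groups did not overlap, but the gap was narrow: the lowest control stood 1.06 times above the highest propionate mouse. Means were 5182 ± 753 and 4050.0 ± 188 (SD, n = 4), with a log2 fold change of -0.36 ± 0.09 (SE), or 0.781 times the control level. The spread was uneven, with a coefficient of variation of 14.5% in controls and 4.64% with propionate. Without control mouse 1 the log2 fold change was -0.26 ± 0.08 (SE), and with the length and GC trend removed it was -0.11 ± 0.09 (SE). Mean FPKM was 55.1 ± 8.04 in controls and 43.0 ± 1.65 with propionate (SD, n = 4), within ranges of 47.9 to 65.6 and 41.5 to 45.1. The gene lies on the minus strand of chromosome 9 from 86463424 to 86578006 in the table.

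Reads of Me1 have a further limit. Of 3243 windows of 50 bases in its longest coding transcript, 858 (26.5%) also occur in transcripts of other genes, and 787 of them are in Gm7049, annotated as a processed pseudogene. Gm7049 is not among the listed genes. The share was 3.98% for Lpl, spread over 129 genes, and 0.155% for Cyp51. By FPKM the control order of the genes was Scd1, Cyp51, Lpl and Me1, and with propionate it was Scd1, Cyp51, Me1 and Lpl. In both orders, neighbours after Scd1 differed by less than the larger of their SDs. The place of Lpl rests on its long gene model: per longest coding transcript it came after Scd1 in both groups, at 153 FPKM against 69.7 for Cyp51 and 64.4 for Me1 in controls, and at 103 against 52.0 and 50.2 with propionate.

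**Figure D2:**
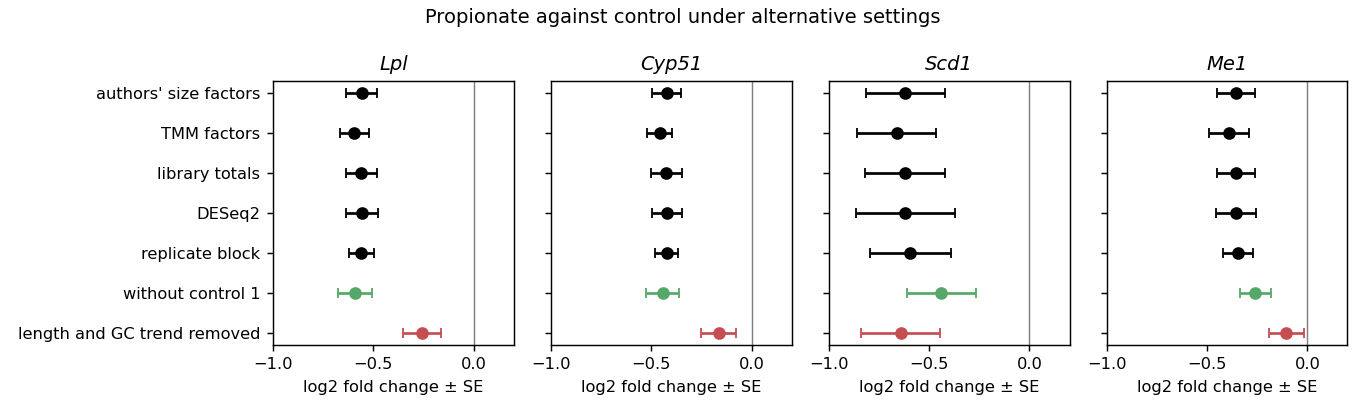
Log2 fold change (propionate against control, ± SE) of each of the 4 genes with the authors' size factors, with TMM factors, with library totals, by DESeq2, with a block for the replicate number, when control mouse 1 was left out, and with the length and GC trend removed. All values are below 0, and the last step brings Lpl to -0.26, Cyp51 to -0.16 and Me1 to -0.11 while Scd1 stays at -0.64.

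No pair of the 4 transcripts was shown to vary together from mouse to mouse. Deviations of log2(scaled count + 1) from the group mean were correlated over 8 mice, which leaves out the difference between the groups. Of 6 pairs, 0 passed an exact two-sided permutation within groups, adjusted or unadjusted, and the lowest unadjusted p was 0.271 for Pearson's r and 0.212 for Spearman's rho. The smallest p that such permutations can give is 0.00174 for Pearson's r, and it is larger for Spearman's rho. For Lpl and Me1, Pearson's r was -0.41 and Spearman's rho -0.20 (exact permutation p = 0.271 and 0.733, adjusted p = 0.867 and 1). Without control mouse 1 and propionate mouse 2, the farthest from the median of Lpl, this r was -0.78. For Scd1 and Me1 they were 0.37 and 0.20 (exact permutation p = 0.495 and 0.733, adjusted p = 0.867 and 1). That r was 0.47 without control mouse 3 and propionate mouse 1 but -0.35 without control mouse 1. For Cyp51 and Scd1 they were 0.32 and 0.60 (exact permutation p = 0.448 and 0.212, adjusted p = 0.867 and 1), with an r of 0.49 without control mouse 2 and propionate mouse 4. For Lpl and Cyp51 they were 0.28 and 0.20 (exact permutation p = 0.578 and 0.733, adjusted p = 0.867 and 1), with an r of 0.27 without the 2 mice farthest from the median of Lpl. For Lpl and Scd1 they were -0.08 and 0.00 (exact permutation p = 0.837 and 1, adjusted p = 0.898 and 1), and r became 0.82 without those 2 mice. For Cyp51 and Me1 they were -0.06 and 0.00 (exact permutation p = 0.898 and 1, adjusted p = 0.898 and 1), and r was -0.38 without control mouse 2 and propionate mouse 4.

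Control mouse 1 stood high in several lipid genes, among them Scd1 and Me1 but neither Lpl nor Cyp51. It was at 135% of the control mean for Scd1, 120% for Me1, 92.7% for Lpl and 95.7% for Cyp51. The same mouse was at 156% for Acacb, the acetyl-CoA carboxylase of the mitochondrial surface, at 151% for the fatty acid translocase Cd36 and at 136% for Insig1, which retains SREBP in the endoplasmic reticulum. These 3 genes were picked after their values were seen. Their log2 ratios of means were -0.44 for Acacb, -0.56 for Cd36 and -0.41 for Insig1 with all mice, and -0.14, -0.29 and -0.23 without control mouse 1. Over the 4 genes and 21 others of the lipid, NADPH and Nrf2 lists, control mouse 1 was the highest control in 8 of the 18 that were lower with propionate. Among listed genes lower with propionate and with a mean scaled count of at least 50, it was the highest control in 22.9%. Over all 25 it was the highest in 9 and control mouse 2 in 8, against 20.1% and 31.1% of the 1633 listed genes with that mean count.

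**Figure D3:**
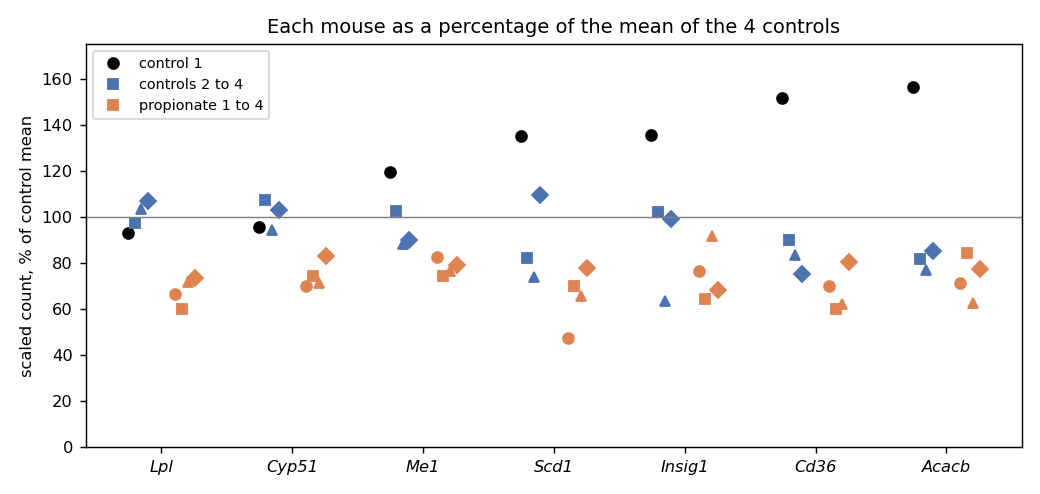
Scaled count of each mouse as a percentage of the mean of the 4 controls, for the 4 genes and for Insig1, Cd36 and Acacb. Control mouse 1 (black) lies at 92.7% for Lpl and 95.7% for Cyp51 but at 135% for Scd1 and 156% for Acacb.

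Around these genes, 171 symbols were written in 8 lists of lipid, NADPH and Nrf2 genes, and 21 of them beside the 4 are in the table. Among these, 14 were lower and 7 higher in the group means. Of the 21, 1 fell in the authors' deposited table past an adjusted p of 0.05 (background 5.33% of listed genes) and 0 rose (background 2.8%), although all 21 have an unadjusted p under 0.05 by the table's selection. By edgeR over the listed genes, 10 passed lower and 7 higher, against 42% and 48.2% of all genes tested. Their median log2 fold change was -0.22, where that of all tested genes was 0.16. With the length and GC trend removed it was 0.03, where that of all tested genes was 0.09. In that setting 4 of the 21 passed, 2 in each direction, and of all 1784 genes tested 431 passed higher and 179 lower. The edgeR count of 17 was 5, 2, 0 and 0 without control mouse 1, 2, 3 and 4. It was 12, 12, 2 and 1 without propionate mouse 1, 2, 3 and 4. The count over all listed genes, 1617, also fell, to 546, 186, 30 and 156 without control mouse 1, 2, 3 and 4. Without propionate mouse 1, 2, 3 and 4 that count was 1389, 1156, 127 and 163.

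**Figure D4:**
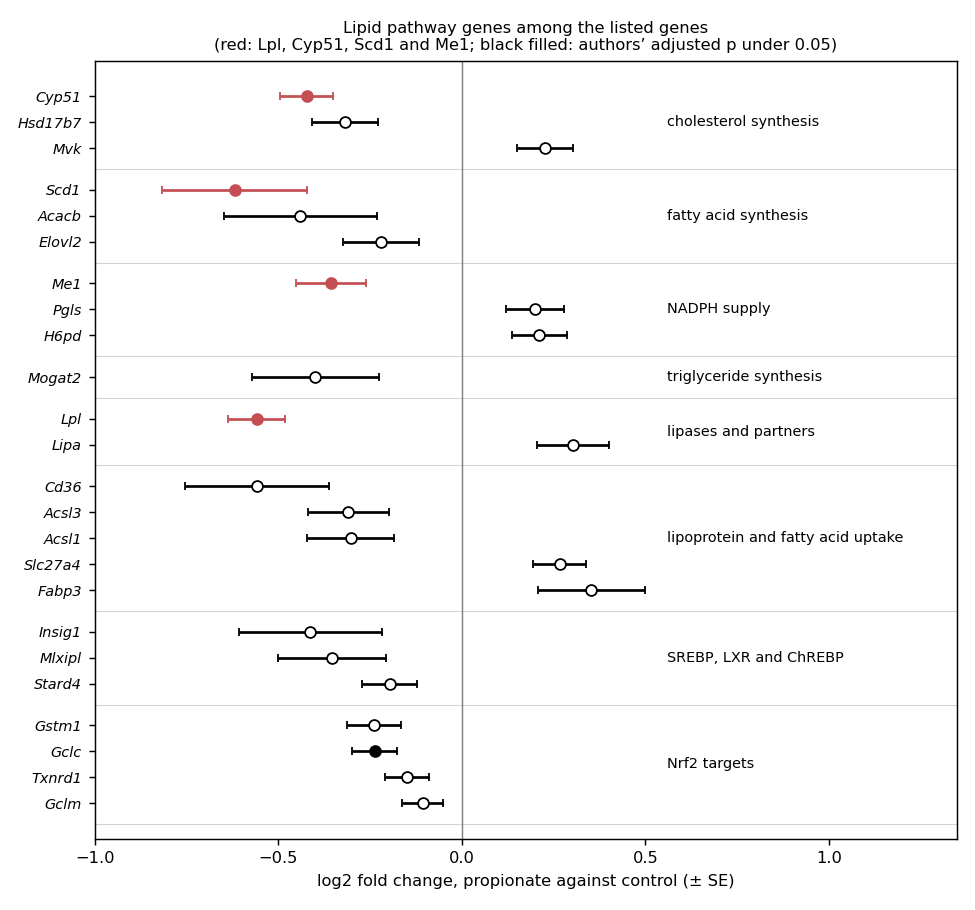
Log2 fold change (propionate against control, ± SE, edgeR) of the genes of each list that are in the table (1 uptake gene is not shown), with Lpl, Cyp51, Scd1 and Me1 in red and genes past the authors' adjusted p of 0.05 filled black. Gclc is the only filled black point, and members of the same list lie on both sides of 0 for cholesterol synthesis, NADPH supply, lipases and fatty acid uptake.

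Beside Lpl, the 23 symbols for lipase partners and other lipases had 1 more gene in the table, Lipa, the lysosomal acid lipase. Lipa went from 2936 ± 323 to 3625 ± 388 scaled counts (SD, n = 4), and the log2 fold change was 0.30 ± 0.10 (SE), opposite in sign to Lpl. By edgeR over the listed genes its adjusted p was 0.0365, and the authors' deposited table lists 0.168. With the length and GC trend removed its log2 fold change was 0.70. Gpihbp1, which carries the lipase to the capillary surface, and the lipase inhibitor Angptl4 are not among the listed genes. For uptake, 6 of 20 symbols were in the table, 3 lower and 3 higher in the means, and 0 passed in the authors' deposited table, while edgeR over the listed genes called 6, where 90.2% of all genes tested were called. Once the trend on length and GC was taken out, 1 of the 6 passed, Slc27a4, which was higher. In that setting 431 of all 1784 genes tested passed higher and 179 lower. The log2 fold change was -0.56 ± 0.20 (SE) for Cd36 and -0.30 ± 0.12 (SE) for the acyl-CoA synthetase Acsl1, against 0.27 ± 0.07 (SE) for Slc27a4, a fatty acid transport protein, and 0.35 ± 0.15 (SE) for the heart-type fatty acid binding protein Fabp3. The authors' deposited table lists adjusted p = 0.153 for Cd36, 0.275 for Acsl1, 0.0859 for Slc27a4 and 0.321 for Fabp3. The synthetase Acsl3 was lower in the means, with a log2 fold change of -0.31 ± 0.11 (SE). With the length and GC trend removed Cd36 was at -0.13 and Slc27a4 at 0.25.

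Beside Cyp51, 2 more of the 21 cholesterol synthesis genes are in the table, and they lay on opposite sides. Hsd17b7, a ketoreductase of the pathway, went from 728 ± 30.2 to 584 ± 70.6 scaled counts (SD, n = 4), and the log2 fold change was -0.32 ± 0.09 (SE). Mevalonate kinase, Mvk, went from 356 ± 13.2 to 417 ± 24.9 (SD, n = 4), and the log2 fold change was 0.23 ± 0.08 (SE). The groups did not overlap in either gene, as in 23.5% of listed genes with propionate lower and 24.1% with propionate higher. The authors' deposited table lists adjusted p = 0.116 for Hsd17b7 and 0.322 for Mvk. By edgeR over the listed genes the adjusted p was 0.0325 for Hsd17b7 and 0.0385 for Mvk, and 0.352 and 0.444 once the length and GC trend was taken out. Of all genes tested, selected on the same libraries, 90.2% passed by edgeR, and 610 of 1784 with that trend taken out. The SREBP2 target Sqle is not among the listed genes, so its level is not analysed here. Of 22 regulators and related genes, 3 were in the table, all lower in the means: Insig1 at -0.41 ± 0.20, the carbohydrate-sensing factor Mlxipl at -0.35 ± 0.15 and the sterol carrier Stard4 at -0.20 ± 0.08 (log2 fold change ± SE). The authors' deposited table lists adjusted p = 0.383, 0.334 and 0.342 for them, so 0 passed there, and edgeR over the listed genes called 2 lower (Mlxipl and Stard4), where 42% of all genes tested were. Both calls were lost once the trend on length and GC was taken out (adjusted p = 0.0516 and 0.488 by edgeR).

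Beside Scd1, the 28 symbols for fatty acid synthesis had 2 more genes in the table, Acacb and the elongase Elovl2. Their log2 fold changes were -0.44 ± 0.21 and -0.22 ± 0.10 (SE), where the authors' deposited table lists adjusted p = 0.377 and 0.443, and neither passed by edgeR. Mogat2, an acyltransferase that builds triglyceride, was at -0.40 ± 0.17 on the log2 scale (SE) at scaled counts of 160.2 ± 13.8 and 121 ± 29.1 (SD, n = 4). By edgeR over the listed genes, selected on the same libraries, its adjusted p was 0.0494, where 90.2% of genes tested passed. The authors' deposited table lists an adjusted p of 0.400 for Mogat2. Beside Me1, 2 further genes of the NADPH list were in the table and higher in the means. H6pd of the endoplasmic reticulum was at 0.21 ± 0.08 and Pgls of the pentose phosphate pathway at 0.20 ± 0.08 (log2 fold change ± SE). The authors' deposited table lists adjusted p = 0.251 and 0.366 for these.

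Of the Nrf2 targets, a list to which Me1 is also known to belong, 4 of 23 symbols were in the table and all were lower in the means. Gclc, the catalytic subunit of the enzyme that starts glutathione synthesis, had scaled counts of 4391, 4402, 4851 and 4595 in controls and 3763, 3648, 3966 and 4093 with propionate. It fell in the authors' deposited table (adjusted p = 0.0337), with a log2 fold change of -0.24 ± 0.06 (SE). Its groups did not overlap, as in 23.5% of listed genes with propionate lower. By edgeR over the listed genes its adjusted p was 0.0294, and 0.0564 with the length and GC trend removed (log2 fold change -0.14). Before that removal 90.2% of all genes tested passed, having been selected on the same libraries. The partner subunit Gclm was at -0.11 ± 0.06, thioredoxin reductase Txnrd1 at -0.15 ± 0.06 and the glutathione transferase Gstm1 at -0.24 ± 0.07 (log2 fold change ± SE). For them the authors' deposited table lists adjusted p = 0.432, 0.319 and 0.109. With the length and GC trend removed Gclm was at 0.04, Txnrd1 at -0.05 and Gstm1 at -0.36. Of the 4 only Gstm1 passed in that setting (adjusted p = 0.0129 by edgeR). Gstm1 belongs to a family of close copies, and the sequence it shares with them was not measured here.

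Some cells outside the tubules also make these transcripts, Lpl and Scd1 being abundant in fat and Lpl in macrophages. Of 16 macrophage markers, 6 were in the table (Cd68, Mrc1, Itgam, Mertk, Cx3cr1 and Trem2) and all were lower in the means. Their summed level was 19.0 to 29.4 FPKM in controls and 13.8 to 20.5 FPKM with propionate. All 6 entered the table through a difference in this same contrast, so nothing is read from their sum. The authors' deposited table called 0 of them. Over the listed genes edgeR called 3 of the 6 lower, near the 42% of all genes tested. Once the trend on length and GC was taken out 0 of the 6 passed, where 179 of all 1784 genes tested passed lower. The part of macrophages in the Lpl values was not tested. Fewer cells of a type and less RNA per cell cannot be told apart in these whole-kidney samples. Of 15 fat markers 1 was in the table, Pnpla3, also known as a lipogenic gene of liver, at 194, 23.3, 7.19 and 17.0 scaled counts in controls and 16.7, 6.85, 25.8 and 5.95 with propionate. Only control mouse 1 was high for Pnpla3, the mouse that was also highest for Scd1 and Me1. The part of fat tissue in these values was not tested, and the fat markers Adipoq, Plin1 and Lep are not analysed here.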

How the data were processed

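Kidney RNA of 8 MRL-lpr mice was sequenced as paired reads of 150 bases. The authors deposited 1 table with read counts per gene, the counts divided by a size factor per library (a scaled signal), their group means, FPKM, log2 fold changes and p-values with adjusted p-values, per the file headers. The submitters' processing notes name DESeq2 and mm10. The sources used here do not name the aligner, counter, library kit or strandedness. The table's coordinates differ from GRCm38, so promoters, transcript GC and shared windows were taken from GRCm38.p6 (RefSeq) and GENCODE M21 by gene and not by position. GC was found for 1913 of 1931 genes.

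Size factors and library totals were recovered from the deposited counts, scaled counts, FPKM and gene lengths. edgeR 4.0.16 (R 4.3.3) was fitted to the deposited counts of all listed genes with the authors' size factors, since TMM takes most genes to be unchanged and these were selected for a difference. Benjamini-Hochberg adjustment ran over the genes tested, a threshold of 0.05. Standard errors come from this fit. Alternatives were TMM, library totals, DESeq2 1.42.0, no filter, a replicate block, a spline trend (4 degrees of freedom each) on log length and GC, log2(FPKM + 1) and leaving out each library. The edgeR and DESeq2 fits and the permutation were tested on simulated data. Genes were named by rule: the 4 genes, the list genes in the table, and for each of the 4 the 3 listed genes (mean scaled count of at least 50) most alike in deviations from group means. Of the genes this rule names, 1 is counted but not reported here. The genes and lists were chosen with earlier results of these data known. p-values set a difference or a correlation against the spread between these libraries. Those of edgeR were computed over genes already selected for a difference on the same libraries.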

Additional observations from a re-analysis of the deposited data

Results flagged for a closer look

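The scaled count of Acacb in control mouse 1 was 1768, where the other 3 controls lay between 867 and 962, a gap that takes 0.894 of the range of the group and is above the limit of Dixon's test for 4 samples. It was the only such value among 50 groups checked (25 genes in control and propionate mice), and by chance about 1 in 20 groups would show one. Pnpla3 was not among the 25 genes, and its scaled count was also far higher in control mouse 1. It was 194 there and 7.19 to 23.3 in the other 3 controls.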

How the results depend on the processing

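Each of the 4 genes stayed lower with propionate under all settings run. These were the other scalings, DESeq2, no filter, the block, the trend, log2(FPKM + 1) and leaving out each library. The genes were chosen for this difference, so the kept sign is a description and no support for it. For Lpl, Cyp51 and Me1, whose groups did not overlap, leaving out 1 library could not reverse the difference in means. Leaving out 1 library gave log2 fold changes of -0.60 to -0.50 for Lpl, -0.48 to -0.39 for Cyp51, -0.74 to -0.44 for Scd1 and -0.41 to -0.26 for Me1. With the replicate block they were -0.56 ± 0.06 for Lpl, -0.42 ± 0.06 for Cyp51, -0.59 ± 0.20 for Scd1 and -0.35 ± 0.08 for Me1 (SE). Without the block these SEs were 0.08, 0.07, 0.20 and 0.09. With the length and GC trend removed Lpl was at -0.26, Cyp51 at -0.16 and Me1 at -0.11, the count of listed genes called was 610 in place of 1617, and that of other pathway genes 4 in place of 17; the cause was not tested. These counts ranged from 30 to 1389 and from 0 to 12 with 1 library left out. The count of 1617 became 546, 186, 30 and 156 without control mouse 1, 2, 3 and 4, and 127 and 163 without propionate mouse 3 and 4. With the replicate block they were 1562 and 16. Same-numbered mice had correlations of 0.17, 0.36, 0.02 and 0.21 between their deviations over 1633 genes. Of 4 controls, 2 were most like the propionate mouse of their own number. These values do not settle whether same-numbered mice were paired, and the main fit used no pairing. The count of other pathway genes that were lower, 14, was 14 without control mouse 1, 14 with TMM and 10 with the trend removed, alternatives chosen after seeing the data. With 1 library left out, r ran from -0.32 to 0.29 for Lpl and Scd1, from -0.36 to 0.35 for Cyp51 and Me1, from -0.35 to 0.66 for Scd1 and Me1 and from -0.14 to 0.43 for Lpl and Cyp51. The other 2 pairs kept their sign, from -0.86 to -0.07 for Lpl and Me1 and from 0.07 to 0.67 for Cyp51 and Scd1, and 0 pairs passed under any setting. Precision is limited by 4 mice per group rather than by reads, since each of the 4 genes had at least 3840 reads in every library.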

Other observations

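Among 1544 other named genes of the table, the 3 whose deviations from the group means over the 8 mice were most like Lpl included Slc20a1 (Pearson's r = 0.94) and Rnf24 (0.93). For Cyp51 they were Rps26 (0.96), Wbp1 (0.96) and Rnd2 (0.95), and for Scd1 they were Dcbld1 (0.97), Mgmt (0.94) and Snrk (0.89). For Me1 they were Aldh1l2 (0.96), Rasl12 (0.93) and Tnk2 (0.92). The number of genes at r of at least 0.9 was 13 for Lpl, 15 for Cyp51, 2 for Scd1 and 5 for Me1. These are the highest of many values over few mice and are given as a description. Likeness within groups did not mean a like difference between them: in the authors' deposited table the log2 fold change of Rnf24 was -0.84, while those of the 3 genes most like Cyp51 and of the 3 most like Scd1 were above 0.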
